A study of Rattus norvegicus with 3 samples.

Results

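Spp1, which encodes the secreted phosphoprotein osteopontin, was examined with 6 genes known to accompany it in the macrophages of scars and lipid-rich lesions, namely Lgals3, Gpnmb, Trem2, Cd9, Fabp5 and Ctsd. The genes were taken by symbol from the feature annotation of single-nucleus RNA sequencing of rat heart, in which each of the 7 symbols matched 1 of the 22250 annotated genes. They were chosen by name, as Spp1 and genes that go with it in scar macrophages, with earlier results of these UMI counts known, so its levels are given as a description and no statistical test was applied to them. Nuclei came from the apex of the heart, with parts of the septum and both ventricles, of rats aged 12 months. The 3 libraries were 1 of wild-type (WT) littermates, 1 of BMD rats, in which CRISPR/Cas9 removed exons 45 to 47 of Dmd in frame as in Becker muscular dystrophy, and 1 of DMD rats, in which exon 52 of Dmd was deleted as in Duchenne muscular dystrophy. Both are heritable deletions rather than heart-specific ones, and the number of rats behind each library was not given in the sources used here. With 1 library per genotype there was no replicate check, so intervals below are 95% intervals that cover counting error only, and a difference between libraries cannot be told apart from a difference between the individual hearts or preparations. Both comparisons with WT use the same WT library.

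Osteopontin is bound by integrins and by CD44 and is made by macrophages that clear debris and by cells that build bone and cartilage. Its companions belong to a related programme. Trem2 is a lipid-sensing surface receptor of macrophages that signals through Tyrobp, Gpnmb is a transmembrane glycoprotein induced when lysosomes are loaded, Ctsd is the lysosomal aspartic protease cathepsin D, Fabp5 is a cytosolic carrier of fatty acids, Lgals3 encodes the carbohydrate-binding lectin galectin-3, and Cd9 is a tetraspanin of the cell membrane. In the scarred heart such macrophages are commonly called scar-associated or lipid-associated, while macrophages that settle in the healthy heart carry Cd163, Lyve1 and Folr2.

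The proximal promoters of 4 members are shown because Gpnmb was the gene whose nuclei coincided most with those of Spp1, Ctsd was lower in both mutants as they were, and Trem2 was higher. Promoters of 5 members, those of Spp1, Gpnmb, Trem2, Ctsd and Cd9, were matched by symbol in the RefSeq table of build GRCr8, and Lgals3 and Fabp5 had no entry there. Each sequence runs 5′ to 3′ along the gene's strand over the 250 bases before its annotated start, and capitals mark letters that match 1 of 5 searched motifs on either strand. Spp1 lies at chr14:5619805-5620054 on the minus strand, Gpnmb at chr4:79340878-79341127 on the plus strand, Ctsd at chr1:206968822-206969071 on the minus strand and Trem2 at chr9:20151780-20152029 on the minus strand.
Spp1: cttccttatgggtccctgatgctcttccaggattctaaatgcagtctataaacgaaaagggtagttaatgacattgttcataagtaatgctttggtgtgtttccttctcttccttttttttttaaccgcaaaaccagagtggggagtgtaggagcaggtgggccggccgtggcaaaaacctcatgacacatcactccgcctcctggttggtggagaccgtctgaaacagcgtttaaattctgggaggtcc
Gpnmb: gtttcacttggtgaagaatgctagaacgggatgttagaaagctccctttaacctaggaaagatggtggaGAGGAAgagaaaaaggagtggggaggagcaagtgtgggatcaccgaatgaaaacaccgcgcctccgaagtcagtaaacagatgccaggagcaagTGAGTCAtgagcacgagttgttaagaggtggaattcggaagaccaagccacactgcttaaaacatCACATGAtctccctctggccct
Ctsd: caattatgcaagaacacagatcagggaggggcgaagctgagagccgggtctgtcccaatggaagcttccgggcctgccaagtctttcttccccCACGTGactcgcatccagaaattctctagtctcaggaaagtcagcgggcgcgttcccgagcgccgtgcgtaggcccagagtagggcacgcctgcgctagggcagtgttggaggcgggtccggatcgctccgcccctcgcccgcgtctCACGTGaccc
Trem2: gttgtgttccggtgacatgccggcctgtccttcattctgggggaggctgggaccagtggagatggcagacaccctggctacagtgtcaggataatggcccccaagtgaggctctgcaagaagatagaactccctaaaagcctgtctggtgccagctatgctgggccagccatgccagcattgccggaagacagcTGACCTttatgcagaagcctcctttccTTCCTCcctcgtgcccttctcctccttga
The motifs were CACGTG, the core bound by many basic helix-loop-helix factors, TCATGTG, an element known for Mitf and its relatives, TGANTCA, the AP-1 element, AGGTCA, an element of nuclear receptors, and GAGGAA, a core of Ets-family sites such as those of PU.1. The Gpnmb promoter held TCATGTG, read as its reverse complement CACATGA, 22 to 16 bases before the start, which 3.07% of all 33469 promoters of this length also hold. It also held the AP-1 letters TGAGTCA 87 to 81 bases before the start, present as TGANTCA in 6.34% of promoters, and GAGGAA, present in 23.3%. The Ctsd promoter held CACGTG at 157 to 152 and again at 10 to 5 bases before the start, against 5.59% of promoters with at least 1 copy. The Trem2 promoter held AGGTCA on its reverse strand, as do 14.1% of promoters, and GAGGAA on its reverse strand. No letters of the 5 motifs were found in the Spp1 window, and no matches in the printed promoters shared a base. These matches describe letters only and show no binding.

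The libraries held 19215994 to 21609238 unique molecular identifiers (UMIs, each standing for 1 captured RNA molecule). The median nucleus had 1212.5 (WT), 1486.5 (BMD) and 1229 (DMD) UMIs, and the libraries shared 12 to 20 barcodes in pairs among the nuclei retained. Nuclei were grouped into clusters without the 7 members and named from marker lists. The macrophage-like class, which had UMIs of all 10 of its markers in each library, held 765 WT, 617 BMD and 537 DMD nuclei, or 7.68%, 9.06% and 6.81% of nuclei. Its median depth was 1158, 1144 and 1181 UMIs. Levels below are UMIs per 1000000 UMIs of the class (CPM). The class was not pure. Its fibroblast markers, 9 of 9 with UMIs in each library, summed to 2383 CPM for WT, 1524 for BMD and 3747 for DMD. Cardiomyocyte markers summed to 1173, 2040 and 1231 CPM, and endothelial markers to 564, 634 and 1342 CPM. Its own markers summed to 4543, 5555 and 4831 CPM. Scrublet, a doublet caller, marked 14.4%, 9.40% and 23.8% of its nuclei, and mitochondrial RNA made up a median of 2.78% (WT), 0.795% (BMD) and 1.17% (DMD) of their UMIs. The part of these differences in the results was not tested, and values by stratum are given below.

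Spp1 was most abundant in the WT library. Macrophage-like nuclei held 2278 Spp1 UMIs in WT, or 2088 CPM (2003 to 2176), 609 in BMD, or 688 CPM (635 to 745), and 468 in DMD, or 552 CPM (503 to 604). The WT library lay above both mutant libraries with no overlap of counting intervals. Spp1 was thus 3.03-fold higher in WT than in BMD, a log2 ratio of BMD over WT of -1.60 (-1.73 to -1.47). It was 3.78-fold higher in WT than in DMD, a log2 ratio of -1.92 (-2.07 to -1.78). The DMD and BMD libraries were closer to each other, at a log2 ratio of DMD over BMD of -0.32 (-0.49 to -0.14). These intervals treat each UMI as independent. The 20 nuclei with most Spp1 held 51.3% (WT), 88.0% (BMD) and 94.9% (DMD) of its UMIs, so the intervals are likely too narrow. No order of the 2 mutants is read from them. Setting all genes with at least 50 UMIs in this class in order of the ratio over WT that lay nearer to 0, Spp1 was number 7 from the lowest of 8033. The size depended on the clustering, since at a Leiden resolution of 1 a cluster rich in WT nuclei stayed unnamed and the ratios of the remaining class were -0.19 for BMD and -1.56 for DMD.

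**Figure D1:**
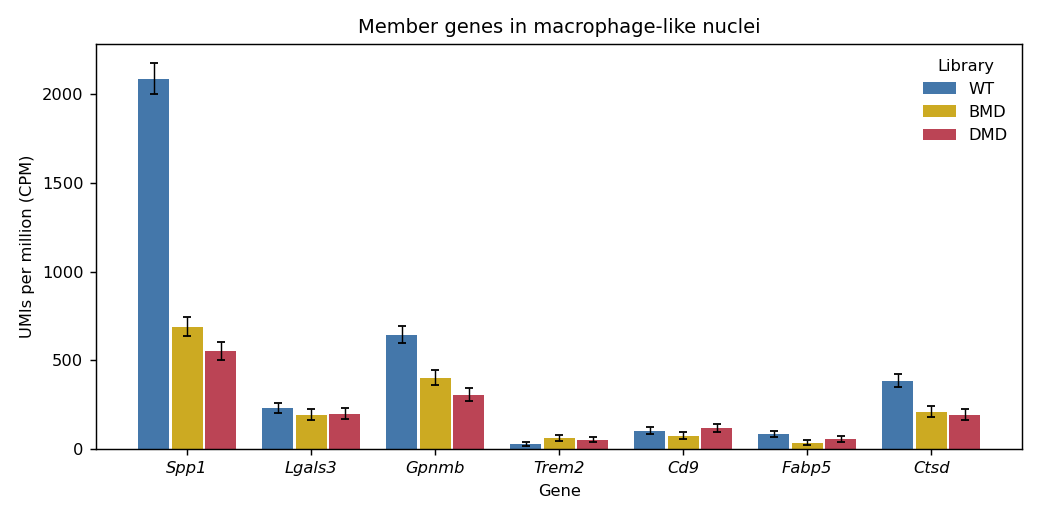
Bars give the level of each member gene in macrophage-like nuclei, in CPM (linear axis from 0), for the WT, BMD and DMD libraries, and error bars give 95% Poisson intervals of counting error. Spp1 stands at 2088 CPM in WT against 688 in BMD and 552 in DMD, Gpnmb and Ctsd are also highest in WT, and Trem2 is the member lowest in WT and higher in both mutants.

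The lysosomal members were also highest in WT. Gpnmb stood at 643 CPM for WT, 399 for BMD and 304 for DMD, from 701, 353 and 258 UMIs. Its log2 ratio over WT was -0.69 (-0.88 to -0.50) in BMD and -1.08 (-1.29 to -0.87) in DMD, and DMD lay below BMD at -0.39 (-0.63 to -0.15). At a Leiden resolution of 1 the ratio of Gpnmb for BMD turned to 0.28. Ctsd, the lysosomal protease, stood at 384 CPM for WT, 209 for BMD and 191 for DMD. Its log2 ratio was -0.88 (-1.14 to -0.62) for BMD and -1.01 (-1.28 to -0.74) for DMD, while the ratio between the mutants, -0.13 (-0.44 to 0.18), included 0.

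Fabp5, the fatty acid carrier, was sparser. It was counted from 89 WT, 31 BMD and 45 DMD UMIs, or 81.6, 35.0 and 53.1 CPM. WT was highest again, and the log2 ratio over WT was -1.22 (-1.86 to -0.62) in BMD and -0.62 (-1.17 to -0.09) in DMD. Between the mutants the ratio of 0.60 (-0.09 to 1.31) included 0.

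Trem2, the lipid-sensing receptor, went the other way. It was counted from 28 WT, 53 BMD and 43 DMD UMIs, or 25.7 CPM (17.1 to 37.1), 59.9 CPM (44.9 to 78.3) and 50.7 CPM (36.7 to 68.3). The WT library was lowest, with a log2 ratio over WT of 1.22 (0.54 to 1.94) in BMD and 0.98 (0.26 to 1.72) in DMD, although the WT and DMD intervals of the levels met at their edges. Trem2 was number 52 from the highest of the 8033 genes in the order described above. These ratios rest on few molecules.

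Lgals3 and Cd9 differed little from WT. Lgals3 stood at 228 CPM for WT, 192 for BMD and 197 for DMD, with log2 ratios over WT of -0.25 (-0.54 to 0.04) and -0.21 (-0.50 to 0.08), so a difference was not detectable at this depth. Cd9 stood at 99.9 CPM for WT, 74.6 for BMD and 117 for DMD, with ratios over WT of -0.42 (-0.89 to 0.03) and 0.22 (-0.18 to 0.63). Between the mutants Cd9 was higher in DMD, at 0.65 (0.18 to 1.12). Of the sub-clusters described below, 1 was led by fibroblast genes and 1 by endothelial genes. Scrublet marked 70.1% and 57.1% of their nuclei, some of them monocyte-like. These sub-clusters held 49 and 34 Cd9 UMIs in DMD and 17 and 16 in BMD. Their part in the Cd9 ratio was not tested.

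All 7 members had at least 50 UMIs in the class. Counting a gene as different when its CPM plus 5 differed by at least 2-fold, 2 members were lower in BMD than in WT, Spp1 and Fabp5, where 2.61% of the 8033 genes were, and 1 was higher, Trem2, where 1.1% were. In DMD over WT 2 members were lower, Spp1 and Gpnmb, where 1.63% of genes were, and 0 were higher, where 2.1% were. Between the mutants 0 members passed this fold in either direction, where 3.15% of genes were higher in DMD and 0.896% lower. The members were chosen with these contrasts known, so nothing is read from the counts against the background. The median log2 ratio over all 8033 genes was -0.002 for BMD over WT and 0.018 for DMD over WT, and 53 genes were at least 2-fold lower and 29 at least 2-fold higher in both mutants.

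Across the 9 named classes, 5 members were highest in macrophage-like nuclei of every library, namely Spp1, Gpnmb, Trem2, Ctsd and Lgals3. For Lgals3 the intervals of macrophage-like and lymphatic-like nuclei overlapped in both mutants, at 192 against 171 CPM in BMD and 197 against 178 CPM in DMD. For Spp1 the next class was monocyte-like in WT, at 316 CPM, and in BMD, at 146 CPM, but fibroblast-like in DMD, at 98.0 CPM. Macrophage-like nuclei therefore held 84.2% of all Spp1 UMIs for WT (82.8 to 85.6), 71.8% for BMD (68.7 to 74.8) and 43.0% for DMD (40.0 to 46.0). The share of Spp1 outside this class was largest in DMD. Trem2 had 73.7% (WT, 56.9 to 86.6), 76.8% (BMD, 65.1 to 86.1) and 71.7% (DMD, 58.6 to 82.5) of its UMIs in macrophage-like nuclei. This was the largest share of the members in both mutants, but in BMD its interval contained that of Spp1. Gpnmb had 71.0%, 65.5% and 49.8% there, below Spp1 in WT and BMD and above it in DMD. Ctsd, a protease of all lysosomes, had 29.1%, 22.5% and 14.7% there. The corresponding shares were 18.2%, 24.2% and 16.5% for Lgals3, 12.7%, 9.72% and 6.92% for Fabp5, and 6.77%, 4.43% and 4.28% for Cd9. These shares depended on the clustering. At a Leiden resolution of 1, 20 of them moved out of their counting intervals and 1 stayed within.

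**Figure D2:**
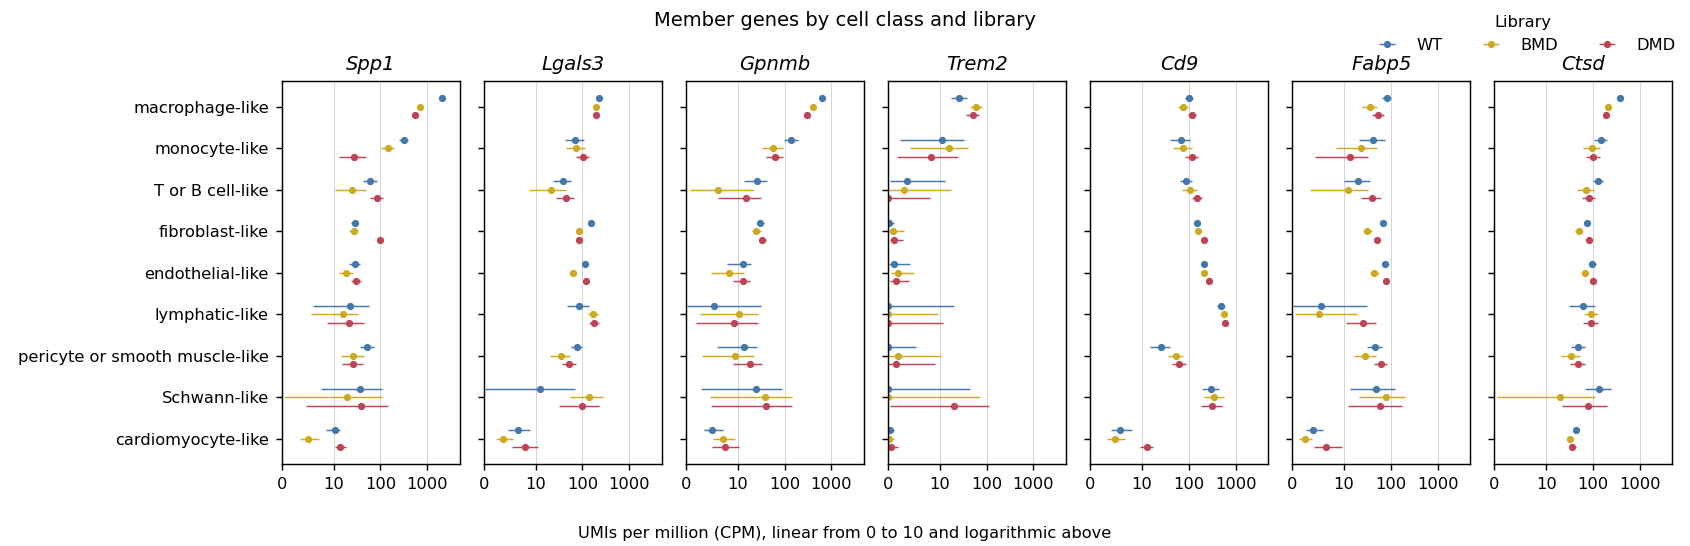
Points give the level of each member in CPM (linear from 0 to 10 and logarithmic above) for 9 cell classes in the WT, BMD and DMD libraries, with 95% Poisson intervals of counting error. Spp1, Gpnmb and Trem2 are highest in macrophage-like nuclei, Cd9 is highest in lymphatic-like nuclei among these classes, and Spp1 in fibroblast-like nuclei reaches 98.0 CPM in DMD alone.

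Cd9 had its highest levels outside the macrophages. Of the named classes it was highest in lymphatic-like nuclei, at 489 CPM for WT, 566 for BMD and 597 for DMD. Over all nuclei Cd9 stood at 93.9, 99.5 and 168 CPM, and DMD exceeded WT by a log2 ratio of 0.84 (0.75 to 0.93). The mix of classes differed too, with endothelial-like nuclei at 17.1% of nuclei in WT and 26.6% in DMD. Cardiomyocyte-like nuclei, low in Cd9, made up 20.4% and 13.5%. The part of this mix in the pooled ratio was not tested. By class, Cd9 was higher in DMD than in WT in fibroblast-like nuclei, at 212 against 151 CPM (0.49, 0.34 to 0.64), in endothelial-like nuclei, at 274 against 217 CPM (0.34, 0.16 to 0.53), and in pericyte or smooth muscle-like nuclei, at 62.4 against 25.1 CPM (1.32, 0.46 to 2.23). In pericyte or smooth muscle-like nuclei, free RNA (described below) would give 29.8 CPM of Cd9 in DMD and 12.3 CPM in WT. The levels there were 2.09-fold and 2.04-fold of it, and the part of free RNA in this ratio was not tested. An unnamed cluster that carried endothelial markers and was led by the endocardial genes Nrg1 and Cgnl1, with 181 WT, 162 BMD and 259 DMD nuclei, had 556, 572 and 663 CPM. Fabp5 was also highest in that cluster, at 209, 194 and 258 CPM. Of the named classes in WT, macrophage-like nuclei at 81.6 CPM (65.5 to 100.4) and endothelial-like nuclei at 76.2 CPM (63.8 to 90.4) did not differ in Fabp5 beyond counting error. In BMD its level was below WT in fibroblast-like nuclei, at 31.7 against 68.6 CPM (-1.12, -1.47 to -0.78), and in endothelial-like nuclei, at 44.4 against 76.2 CPM (-0.78, -1.18 to -0.38).

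Lgals3 differed between libraries outside the macrophages. In fibroblast-like nuclei it stood at 152 CPM for WT, 82.6 for BMD and 82.5 for DMD, and both mutants lay below WT at log2 ratios of -0.88 (-1.09 to -0.67) and -0.88 (-1.08 to -0.68). In lymphatic-like nuclei, from 15, 66 and 57 UMIs, the order was turned round, at 82.4, 171 and 178 CPM, with ratios over WT of 1.05 (0.23 to 1.97) and 1.11 (0.27 to 2.04). Endothelial-like nuclei had 114 CPM for WT, 62.2 for BMD and 122 for DMD, so there only BMD of the mutants lay below WT.

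Monocyte-like nuclei carried Spp1 at 316 CPM for WT (85 UMIs), 146 for BMD (38 UMIs) and 27.3 for DMD (10 UMIs). The log2 ratio of BMD over WT was -1.12 (-1.71 to -0.55). The free RNA of these nuclei would give 63.6, 24.5 and 49.1 CPM of Spp1, so the DMD level lay at or below background and no ratio is read from it. Gpnmb in the same nuclei was also below WT, at 138, 57.5 and 62.9 CPM, with ratios of -1.26 (-2.23 to -0.36) and -1.13 (-1.95 to -0.34). Scrublet marked 45%, 23.1% and 36.3% of the monocyte-like nuclei, and its part in these values was not tested.

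A background of free RNA was estimated for each class. Barcodes with at most 50 UMIs, taken as free RNA, held Spp1 at 531 CPM for WT, 150 for BMD and 203 for DMD. Cardiomyocyte-like nuclei, the named class lowest in Spp1 in each library, showed 11.0, 5.11 and 14.0 CPM. Their estimated share of free RNA would give 11.3, 5.12 and 6.87 CPM, so that DMD stood at 2.03-fold of it. In macrophage-like nuclei the free RNA was estimated at 8.06%, 9.86% and 9.21% of UMIs. It would give 8.08, 5.60 and 10.0 CPM of Gpnmb, and 0.61, 1.40 and 2.08 CPM of Trem2, so that the measured levels of both exceeded it by at least 24.4-fold in each library.

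The share of nuclei with a Spp1 UMI was highest in WT and close between the mutants. After thinning each nucleus to 500 UMIs, which left out no nucleus, a Spp1 UMI was present in 14.4% of the WT macrophage-like nuclei (12.0 to 17.1), 5.51% of those of BMD (3.85 to 7.62) and 5.96% of those of DMD (4.11 to 8.31), and without thinning in 18.3%, 8.43% and 7.82%. Cardiomyocyte-like nuclei, with median depths of 2764, 3777 and 3248 UMIs, gave 0.687%, 0.197% and 0.941% after the same thinning. Gpnmb was present in 17.4%, 10.2% and 8.75% of these nuclei after thinning (27.8%, 18.6% and 16.9% without), and Ctsd in 16.7%, 9.89% and 8.19% (29.4%, 17.7% and 19.9% without). For Trem2 the shares were 1.44% (0.720 to 2.56), 2.76% (1.61 to 4.37) and 2.61% (1.43 to 4.34), with intervals that overlapped, and 3.40%, 7.46% and 6.33% without thinning. Ctsd in cardiomyocyte-like nuclei, at 2.50%, 1.51% and 2.26%, was above the other members there, and its CPM was 4.94-fold to 10.9-fold the level that free RNA would give.

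Within the macrophage-like class Spp1 was held by few nuclei. It had UMIs in 140 WT nuclei, 52 BMD nuclei and 42 DMD nuclei, and at least 10 UMIs in 60, 20 and 11, or 7.84%, 3.24% and 2.05% of the class. The highest single nuclei were nearer to each other, with 104, 74 and 79 Spp1 UMIs. The libraries thus differed more in how many nuclei carried much Spp1 than in the top value of a nucleus. The 20 nuclei with most Spp1 held 51.3% (WT), 88.0% (BMD) and 94.9% (DMD) of the Spp1 UMIs, and 1109, 73 and 24 UMIs were left without them.

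**Figure D3:**
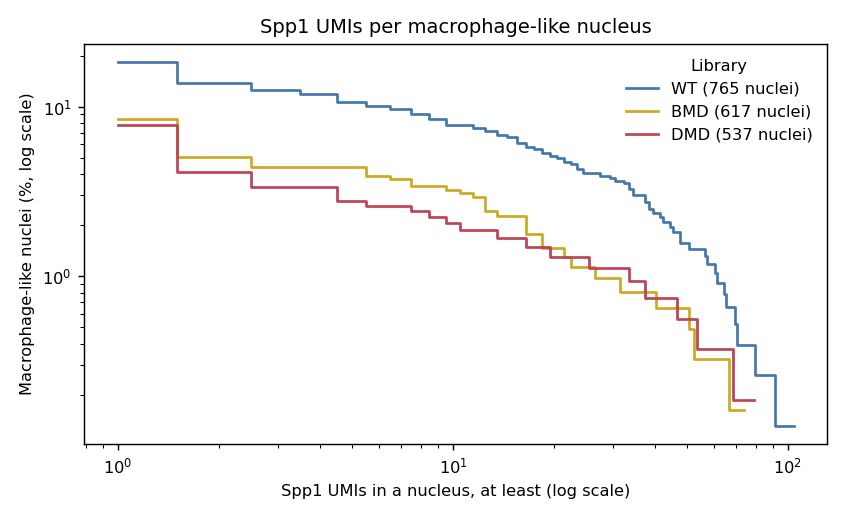
Each line gives the percent of macrophage-like nuclei (log axis) with at least the number of Spp1 UMIs on the horizontal axis (log axis) for the WT (765 nuclei), BMD (617) and DMD (537) libraries. At 10 UMIs the lines stand at 7.84%, 3.24% and 2.05%, and they end at 104, 74 and 79 UMIs.

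Macrophage-like and monocyte-like nuclei were split further into sub-clusters, again without the members, and in 1 of them Spp1 led all genes. Beside Spp1 its leading genes were Fn1, the matrix protein fibronectin, Card14, Il1rn, the antagonist of the interleukin-1 receptor, Vcan, the proteoglycan versican, Tmem26, Tm4sf19, Lonrf3, Anpep and Fam20c, the kinase that phosphorylates osteopontin. It held 197 WT, 54 BMD and 48 DMD nuclei, which is 25.8% (22.7 to 29.0), 8.75% (6.64 to 11.3) and 8.94% (6.66 to 11.7) of the macrophage-like nuclei. Of its nuclei 65.9% came from WT, in a class of 765 WT, 617 BMD and 537 DMD nuclei. The part of the library, beside any cell state, in this sub-cluster was not tested. Scrublet marked 0%, 0% and 2.08% of its nuclei, and its median mitochondrial share was 9.10%, 3.69% and 9.18% against 1.62%, 0.714% and 1.02% in the other macrophage-like nuclei. High mitochondrial RNA therefore went with these nuclei in each library, and its part in their Spp1 was not tested.

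Inside this sub-cluster Spp1 stood at 8441 CPM for WT, 4706 for BMD and 6257 for DMD, and outside it at 482, 331 and 77.9 CPM. With 20.2%, 8.16% and 7.67% of the class's UMIs it held 81.6%, 55.8% and 87.0% of the class's Spp1. The libraries were closer inside it than over the whole class, with log2 ratios over WT of -0.84 (-1.01 to -0.68) in BMD and -0.43 (-0.59 to -0.28) in DMD. Outside it the ratio was -0.54 (-0.77 to -0.32) in BMD and -2.63 (-3.04 to -2.24) in DMD. Spp1 was thus lower than in WT on both sides of the split in both mutants, beside the smaller share of nuclei that the sub-cluster took.

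Gpnmb, Ctsd, Lgals3 and Fabp5 were higher inside the Spp1-led sub-cluster than outside it in each library. Gpnmb stood at 2135, 1675 and 1753 CPM inside and 265, 285 and 184 CPM outside. Inside, its ratio over WT was -0.35 (-0.65 to -0.06) in BMD and -0.28 (-0.59 to 0.01) in DMD, and outside it was 0.11 (-0.16 to 0.37) and -0.53 (-0.84 to -0.22). The BMD library, lower over the whole class, was thus within counting error of WT outside the sub-cluster. Ctsd stood at 895, 526 and 707 CPM inside and 255, 181 and 148 CPM outside, where both mutants remained below WT at -0.50 (-0.81 to -0.19) and -0.78 (-1.12 to -0.45). Lgals3, within counting error over the class, stood at 541, 498 and 661 CPM inside and 149, 165 and 158 CPM outside. Fabp5 stood at 218, 152 and 200 CPM inside, from 48, 11 and 13 UMIs, and 47.1, 24.6 and 40.9 CPM outside. Cd9 had 195, 221 and 200 CPM inside and 75.8, 61.5 and 110 CPM outside.

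Trem2 could not be placed on either side of the split. It stood at 31.8 CPM inside in WT (7 UMIs), 13.8 CPM in BMD (1 UMI) and 0 CPM in DMD (0 UMIs, interval up to 56.7 CPM), and at 24.1, 64.0 and 54.9 CPM outside. The log2 ratio of inside over outside was 0.40 (-1.08 to 1.69) in WT and -2.21 (-7.54 to 0.33) in BMD, and its upper bound was 0.11 in DMD, so that 0 lay within each interval. Outside the sub-cluster Trem2 lay above WT in both mutants, at 1.41 (0.65 to 2.21) and 1.19 (0.40 to 2.01).

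**Figure D4:**
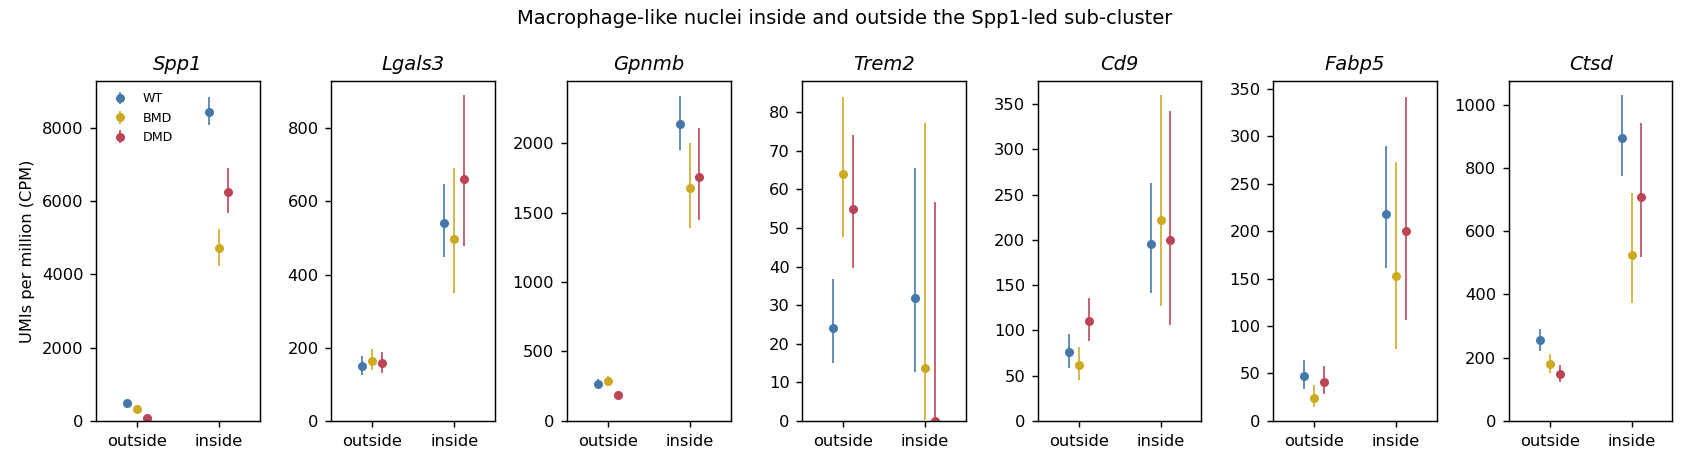
Points give the level of each member in CPM (linear axis from 0, a separate scale for each gene) in macrophage-like nuclei outside and inside the Spp1-led sub-cluster, for the WT, BMD and DMD libraries, with 95% Poisson intervals of counting error. Inside, Spp1 stands at 8441, 4706 and 6257 CPM against 482, 331 and 77.9 CPM outside, and Trem2 outside stands at 24.1, 64.0 and 54.9 CPM.

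The other large sub-clusters differed in which members they carried. A sub-cluster led by the resident macrophage genes Cd163, Lyve1 and F13a1 held 121 WT, 119 BMD and 92 DMD nuclei and had little Spp1, at 20.6, 20.8 and 50.8 CPM from 3, 3 and 5 UMIs. Its Gpnmb stood at 254, 188 and 152 CPM and its Trem2 at 34.4, 83.4 and 60.9 CPM. Another sub-cluster held 166, 275 and 159 nuclei, or 21.7%, 44.6% and 29.6% of the class. Its leading genes included Trpc6, Kcnk10, the class II genes RT1-Bb and RT1-Da, and the cell division genes Cenpf and Top2a. There Spp1 stood at 810 CPM for WT, 248 for BMD and 108 for DMD. Trem2 stood at 47.7, 91.0 and 114 CPM, from 10, 29 and 19 UMIs, and its WT interval overlapped those of both mutants. Trem2 in WT was the lowest and Spp1 in WT the highest of the libraries in this sub-cluster, as over the class. In 4 further sub-clusters, led by genes of fibroblasts, endothelium, cardiomyocytes or pericytes, Scrublet marked 57.1% to 71.4% of nuclei. In the one led by endothelial genes, with 56, 46 and 82 nuclei, BMD was highest in Spp1, at 913 CPM (740 to 1113) against 150 CPM (77.5 to 262) in WT and 99.7 CPM (55.8 to 164) in DMD. Some smaller sub-clusters within the class had few Spp1 UMIs. The one led by genes such as Clec9a and Irf8 held 52, 32 and 20 nuclei, with 2, 1 and 0 Spp1 UMIs. Another, led by genes such as Treml4 and Plac8, held 46, 22 and 34 nuclei, with 4, 0 and 1. A sub-cluster led by genes such as Scel and Msln held 24, 6 and 1 macrophage-like nuclei and 0 Spp1 UMIs in each library. The part of these groups in the class levels was not tested.

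Mitochondrial share moved with Spp1 and was compared by stratum. Shares of 29.7% (WT), 56.6% (BMD) and 46.2% (DMD) of the macrophage-like nuclei had at most 1% mitochondrial UMIs, and 48.2%, 18.8% and 27.7% had over 3%. In the lowest stratum Spp1 stood at 362, 128 and 197 CPM. In nuclei with over 1% and at most 3% it stood at 812 (707 to 928), 916 (787 to 1060) and 276 CPM. There the BMD value was above that of WT, but their intervals overlapped. In the highest stratum Spp1 stood at 3740, 1735 and 1174 CPM, so WT led in the lowest and highest strata, and the DMD level was below that of WT in all 3. Gpnmb was likewise higher with each stratum in WT and BMD, from 280 to 551 and 900 CPM and from 220 to 517 and 691 CPM, and stood at 236, 167 and 490 CPM in DMD. Trem2 stood at 23.0, 26.4 and 26.8 CPM in WT, 54.5, 56.3 and 75.2 CPM in BMD and 36.3, 57.0 and 62.2 CPM in DMD. Its intervals overlapped between strata in each library, so whether Trem2 moved with the mitochondrial share could not be told. WT was lowest in each stratum, from 7, 7 and 14 UMIs, with intervals that overlapped those of both mutants.

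**Figure D5:**
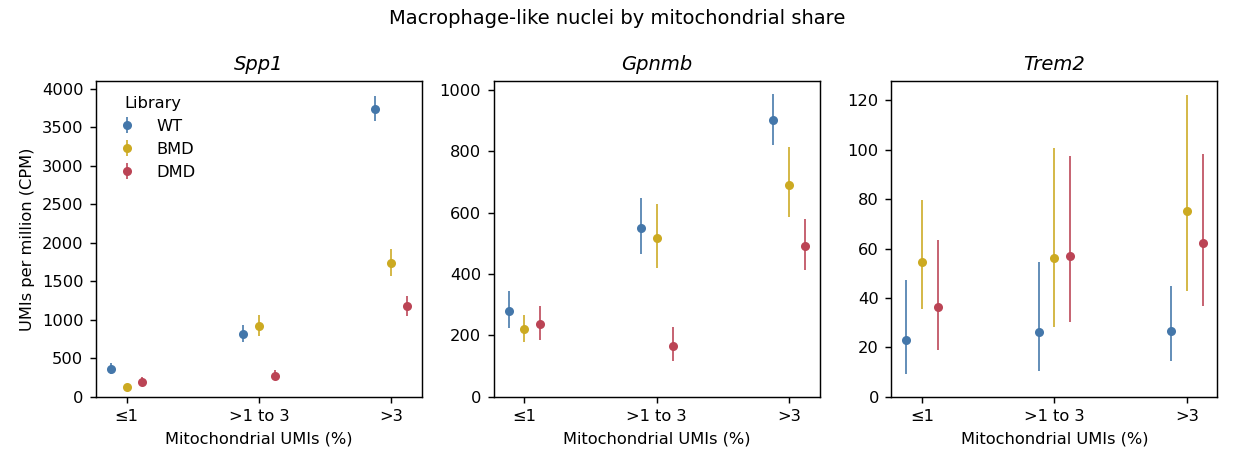
Points give the level of Spp1, Gpnmb and Trem2 in CPM (linear axis from 0, a separate scale for each gene) in macrophage-like nuclei with at most 1%, over 1% to 3% and over 3% mitochondrial UMIs, for the WT, BMD and DMD libraries, with 95% Poisson intervals of counting error. Spp1 climbs with the mitochondrial share to 3740 CPM in WT, and Trem2 in WT stays the lowest of the 3 libraries in each stratum, with intervals that overlap those of both mutants.

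Members coincided with Spp1 in the same nuclei to different degrees. In nuclei thinned to 500 UMIs, Gpnmb was present in 60.9% of the 110 WT nuclei with a Spp1 UMI and in 10.1% of those without. In BMD the shares were 41.2% of 34 nuclei and 8.40%, and in DMD 53.1% of 32 nuclei and 5.94%. Averaged over the 3 libraries, Gpnmb had the largest such difference of all genes. Ctsd followed at place 40, with 38.2% against 13.1% in WT, 26.5% against 8.92% in BMD and 15.6% against 7.72% in DMD. Lgals3 was at place 47, with 25.5% against 7.33%, 14.7% against 7.20% and 28.1% against 7.52%. Fabp5 was at place 172, with 7.27% against 2.60%, 5.88% against 1.37% and 12.5% against 1.58%. Cd9 was at place 206, with 15.5% against 2.75%, 2.94% against 2.92% and 9.38% against 3.76%. Trem2 was found in 4.55% against 0.916% of WT nuclei, and in 0 of 34 BMD and 0 of 32 DMD nuclei with Spp1 against 2.92% and 2.77% of the others, which at these numbers leaves an upper bound of 10.3% and 10.9%. Other genes among the 10 most coincident were Arhgap10, Tec, the transcription factor Mitf, Fn1, Fnip2, Mbnl2 and Fam20c, and the mitochondrial transcripts Mt-nd1 and Mt-cyb.

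Genes were ranked by the likeness of their pattern over 9 classes in 3 libraries to that of Spp1. Among 12312 genes the highest Pearson correlations of log2(CPM plus 5) over these 27 points, which share libraries and classes, were 0.93 for Pf4, 0.92 for Hps5, 0.91 each for Gpnmb, Msr1, Capn13 and Ms4a6a, and 0.89 each for C1qb and Myo5a. Msr1 encodes a scavenger receptor for modified lipoproteins, and C1qb a chain of complement C1q. Of the other members Ctsd had 0.81, Trem2 0.80, Lgals3 0.50, Fabp5 0.45 and Cd9 0.03. In macrophage-like nuclei only Gpnmb and Msr1 of these genes were below WT beyond counting error in both mutants, Msr1 at 456, 310 and 288 CPM. Pf4 stood at 39.4, 54.2 and 51.9 CPM, within counting error of WT in both mutants. Hps5, Capn13, Ms4a6a, C1qb and Myo5a were within counting error of WT in BMD. In DMD Hps5 and Myo5a were lower than in WT, Capn13 and C1qb were higher, and Ms4a6a was within counting error. Without the DMD library 3 of these 8 genes stayed among the 8 most alike.

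Genes known from the same macrophage programme were counted from lists drawn up with the members. The lists were written with earlier results of these data known, and some genes stand in more than 1 list. Their medians are therefore a description, and nothing is read from them against the medians of all genes. Of 25 scar-macrophage and lipid-macrophage companions 24 had at least 50 UMIs, and their ratios over WT had a median of -0.39 for BMD and -0.23 for DMD, beside -0.002 and 0.018 for all genes. In BMD 1 of the 24 was at least 2-fold higher, Apoe, and 2 were lower, Mmp14 and Ftl1. In DMD 2 were higher, Fabp4 and Ctsk, and 2 lower, Itgax and Ftl1. Apoe, the lipoprotein component, stood at 314 CPM for WT, 680 for BMD and 535 for DMD, with ratios of 1.11 (0.92 to 1.31) and 0.77 (0.56 to 0.97), and so lay on the side of Trem2. Ftl1, the ferritin light chain, stood at 222, 78.0 and 97.9 CPM, on the side of Spp1. Itgax, the integrin of CD11c, stood at 87.1, 45.2 and 22.4 CPM.

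In the Trem2 pathway, 13 of 15 genes could be counted, with medians of -0.06 in BMD and -0.24 in DMD. None was 2-fold lower, and Ms4a7 was higher in both mutants, at 4.58 CPM in WT, from 5 UMIs, 38.4 CPM in BMD and 23.6 CPM in DMD. Tyrobp, the adaptor through which Trem2 signals, did not follow Trem2 and stood at 323, 209 and 255 CPM, with ratios over WT of -0.63 (-0.89 to -0.37) and -0.34 (-0.59 to -0.09). Of the lysosomal genes 27 of 28 could be counted, with medians of -0.24 and -0.15, and 1 of them, Neu1, was 2-fold higher in BMD. Among those with most UMIs, Psap, the precursor of the saposins, stood at 1003, 618 and 701 CPM, and Mitf, which regulates lysosomal genes, at 1073, 824 and 623 CPM. Of the cholesterol and fatty acid genes 21 of 24 could be counted, with medians of -0.22 and -0.27. Lpl, which encodes lipoprotein lipase, stood at 292, 149 and 192 CPM. Nr1h3, a sterol-sensing nuclear receptor, was at least 2-fold lower in DMD.

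Genes grouped with the members by family or by a shared name, 18 of 26 with enough UMIs, had medians of 0.10 and 0.12. Of these, 2 were 2-fold higher in DMD, Fabp4 and Ctsk. Ctsk, the cathepsin of bone-resorbing cells, stood at 11.0 CPM for WT, 19.2 for BMD and 99.1 for DMD, while Ctsd was highest in WT. Ctsk and Itgb3 were among the leading genes of a sub-cluster of 7 macrophage-like nuclei found in DMD only. Its part in the Ctsk level of the class was not tested. Of 12 resident macrophage genes 10 were annotated, each with enough UMIs, and these had medians of 0.28 and 0.22. Folr2 stood at 67.8, 185 and 136 CPM and was at least 2-fold higher in BMD, while Cd163 stood at 583, 644 and 642 CPM. Of 10 neutrophil genes 3 could be counted, and S100a8 and S100a9 were higher in DMD, S100a9 at 25.7, 30.5 and 138 CPM.

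Partners of osteopontin were measured in the same nuclei. Of 15 receptors and processing enzymes 8 could be counted, and the medians were -0.30 in BMD and -0.10 in DMD. Cd44, a receptor of osteopontin, stood at 753 CPM for WT macrophage-like nuclei, 450 for BMD and 401 for DMD, with ratios over WT of -0.74 (-0.92 to -0.57) and -0.91 (-1.09 to -0.72), in the direction of Spp1. Itga9, an integrin chain that binds osteopontin, ran opposite at 361, 635 and 581 CPM. Its highest levels were in cardiomyocyte-like nuclei, at 871, 1879 and 1699 CPM, and in lymphatic-like nuclei, at 1533, 1640 and 1721 CPM. Cardiomyocyte marker RNA was present in the macrophage-like class, and its part in the Itga9 level there was not tested. Itgb3, the chain that forms the vitronectin receptor with Itgav, stood at 23.8, 11.3 and 88.5 CPM and was the gene of this list at least 2-fold higher in DMD. The part in this value of the 7 DMD nuclei whose leading genes included Ctsk and Itgb3 was not tested. Fam20c, the osteopontin kinase, was the gene at least 2-fold lower in DMD, at 344, 212 and 151 CPM.

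Fibroblast-like nuclei were the named class in which Spp1 was higher in DMD than in WT beyond counting error. Spp1 was counted there from 137 WT, 79 BMD and 341 DMD UMIs, or 28.3 CPM (23.8 to 33.5), 27.2 CPM (21.5 to 33.9) and 98.0 CPM (87.9 to 109). DMD lay above both, at a log2 ratio over WT of 1.79 (1.5 to 2.09), which was 0.51 when nuclei with at least 1000 UMIs were used. Free RNA would give 24.4, 8.09 and 14.2 CPM in these nuclei, so that WT stood at 1.16-fold, BMD at 3.36-fold and DMD at 6.91-fold of that background, and the ratio over WT is one over a level near background. These UMIs were concentrated in few nuclei, which were then looked up with 8 markers of bone and cartilage cells, a step chosen after the values were seen. Nuclei with UMIs of at least 3 of these markers numbered 0 for WT, 1 for BMD and 23 for DMD, of which 19 were fibroblast-like. The 19 held 201 of the 341 Spp1 UMIs, at 5996 CPM. Without them Spp1 in DMD fibroblast-like nuclei stood at 40.6 CPM (34.2 to 47.9), and without the 54 nuclei with at least 2 markers at 35.4 CPM (29.4 to 42.4), for ratios over WT of 0.52 and 0.32. Of the other members, the 23 DMD nuclei had 0 UMIs of Lgals3, Gpnmb, Trem2 and Fabp5, 2 of Ctsd and 7 of Cd9. Over all nuclei Spp1 stood at 158 CPM for WT, 56.6 for BMD and 79.0 for DMD.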

How the data were processed

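Nuclei of rat heart were sorted on DAPI and sequenced by the authors on the 10x Genomics platform, and their deposited files hold raw UMI counts per gene and barcode, made with Cell Ranger on build rn6 per the labels. The file listed for WT is an aggregate of the 3 libraries in which BMD keeps 76.1% and DMD 92.9% of the UMIs of their own files. WT was read from it by its barcode suffix, BMD and DMD from their own files. In each library the barcodes with most UMIs were kept, up to the number of nuclei that the authors reported, 9964 WT, 6810 BMD and 7890 DMD. Counts were scaled to 10000 per nucleus, and 2000 variable genes without the members, 30 components and Leiden resolution 0.5 gave the clusters (scanpy 1.11.5, numpy 2.4.6, Python 3.11.15), named where at least 3 listed markers led. Doublets were marked with Scrublet and kept. UMIs were then summed per class and library. Intervals are exact Poisson, Clopper-Pearson and conditional binomial, at 95% (scipy 1.17.1). Only the conditional binomial ones were checked, on simulated Poisson counts without any grouping of UMIs in nuclei. That check cannot show how the intervals hold where few nuclei carry most UMIs, as for Spp1. Members, lists and alternatives were chosen with earlier results of these data known. Beside the members, genes were named by rank: the 3 with most UMIs and up to 3 with the largest ratio shared by both mutants in each list, the 8 most like Spp1, and the 10 most coincident with it. TMM scaling used edgeR 4.0.16 under R 4.3.3.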

Additional observations from a re-analysis of the deposited data

Results flagged for a closer look

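The log2 ratio of Spp1 in DMD over WT was 1.79 in fibroblast-like nuclei but -1.92 in macrophage-like, -3.53 in monocyte-like and -0.97 in pericyte or smooth muscle-like nuclei. Of these, the DMD monocyte-like level was 0.56-fold of what free RNA would give, the pericyte or smooth muscle-like levels were 1.38-fold of it in WT and 1.13-fold in DMD, and the WT fibroblast-like level was 1.16-fold of it, while Spp1 in free RNA itself was 531 CPM in WT and 203 CPM in DMD. Lgals3 in BMD over WT was 1.05 in lymphatic-like nuclei but -0.88 in fibroblast-like, -0.87 in endothelial-like, -1.14 in pericyte or smooth muscle-like and -0.81 in cardiomyocyte-like nuclei, where the levels were 1.27-fold (WT) and 1.06-fold (BMD) of the free RNA background. Lgals3 in DMD over WT was 1.11 in lymphatic-like and -0.88 in fibroblast-like nuclei. Each of these ratios had a counting interval without 0. With 1 library per genotype the difference between classes was not tested.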

How the results depend on the processing

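In macrophage-like nuclei with over 1% and at most 3% mitochondrial UMIs, Spp1 stood at 916 CPM in BMD and 812 CPM in WT, with intervals that overlapped. Under each setting listed here, the log2 ratio of Spp1 over WT in macrophage-like nuclei was below 0, but its size depended on which nuclei were counted. For BMD over WT it was -1.37 with at least 1000 UMIs per nucleus, -1.74 without Scrublet doublets, -1.13 without nuclei over 5% mitochondrial UMIs, -0.19 at Leiden resolution 1, where a cluster rich in WT nuclei stayed unnamed, and -2.40 as a mean over nuclei. Among alternatives chosen after seeing the data it was -0.54 without the Spp1-led sub-cluster, -2.05 without sub-clusters mostly of doublets and -3.58 without the 20 nuclei with most Spp1, a removal that by its construction takes all nuclei with at least 10 Spp1 UMIs from the mutants, 20 and 11, but not from WT, which has 60. For DMD over WT the same settings gave -1.71, -1.55, -2.18, -1.56 and -2.12, then -2.63, -1.38 and -5.15. It was -2.07 with at least 500 UMIs, -2.14 with monocyte-like nuclei added, -0.996 over all nuclei and, chosen after seeing the data, -0.88 in nuclei with at most 1% mitochondrial UMIs. Gpnmb in BMD over WT turned to 0.28 at Leiden resolution 1 and to 0.11 without the Spp1-led sub-cluster, and Fabp5 in DMD over WT turned to 0.21 over all nuclei. Of the 8 genes most like Spp1, 3 stayed without the DMD library. With a minimum of 200 UMIs, 0.475% of genes were at least 2-fold lower in DMD than in BMD. Of the ratios recomputed for the 7 members, 171 stayed within the counting interval of the reported value. Another 50 moved beyond it, and 3 whose interval lay on 1 side of 0 changed sign. This tally includes all nuclei and added monocyte-like nuclei as settings, and its sum hides unlike settings. All 14 ratios stayed under TMM scaling, free RNA subtraction, aggregate counts or members kept in the clustering. At Leiden resolution 1, 4 stayed, 9 moved and 1 changed sign. Without the Spp1-led sub-cluster, 7 stayed, 6 moved and 1 changed sign. Lgals3 and Cd9, whose ratios over WT had intervals that included 0, changed sign under several settings. Depth limited Trem2 and Fabp5 most.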

Other observations

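Some small groups within the values above carried members in their own way. A sub-cluster led by the neutrophil genes Camp, Ngp, S100a8 and S100a9 held 7 WT, 23 BMD and 52 DMD nuclei, of which 2, 0 and 1 were macrophage-like and the others monocyte-like. It carried Lgals3 at 542 CPM in BMD and 516 CPM in DMD, from 10 and 21 UMIs, and Spp1 at 0, 1 and 0 UMIs. A sub-cluster of 7 macrophage-like DMD nuclei led by Ak5, Atp6v0d2, Nyap2, Ctsk and Itgb3, of which Ctsk and Itgb3 are known from osteoclasts, held 10 Gpnmb UMIs, or 727 CPM (349 to 1337), and 0 of Spp1 and Trem2, each with an interval up to 268 CPM. An unnamed cluster led by mitochondrial transcripts held 207 DMD nuclei with Spp1 at 297 CPM (224 to 385) and Cd9 at the same 297 CPM, Lgals3 at 201 CPM and Ctsd at 207 CPM, while its 32 WT and 70 BMD nuclei had 0 and 1 Spp1 UMIs.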
